A study of Mus musculus with 4 samples.

Results

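Ligands and receptors that steer growing axons were examined by RNA-seq in the telencephalon, the front of the embryonic brain that gives rise to cortex and basal ganglia, of C57BL/6 mouse embryos at embryonic day 13. The genes were chosen by symbol and comprise the Eph receptors, the ephrins, semaphorin classes 3 to 7, plexins, neuropilins, Robos, Slits, netrins, Unc5 receptors and Dcc. This gave 68 of the 30637 genes in the deposited table. Of the 68, 58 had a mean of at least 1 FPKM (fragments per kilobase of transcript, scaled to the mapped fragments of the library) over all libraries and were tested, as were 13927 genes in all. The study set 2 control libraries against 2 Pd1CKO libraries. The controls are titled wild type in the labels and given as Pd1fl/fl, that is carrying a floxed allele of Pd1 (gene symbol Pdcd1, an inhibitory receptor best known from T cells), in the design text. Pd1CKO is a conditional knockout of the same gene; the sources used here name no Cre driver, and so not the cells that lose the gene. The design text speaks of 2 mice per genotype, and whether a library holds 1 embryo or several is not stated. Titles number the libraries 1 and 2 within each genotype. Control 1 and Pd1CKO 1 are called pair 1 here, and control 2 and Pd1CKO 2 pair 2, although no label says that the number marks a litter, a batch or a day.

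Axons find their targets by reading cues on cells and in the matrix around them. Ephrin-A ligands are anchored in the membrane by lipid and bind mainly EphA receptors, whereas ephrin-B ligands span the membrane and bind mainly EphB receptors, and both sides of the contact can signal. Class 3 semaphorins are secreted and act through neuropilins with plexins of the A group, while the semaphorins of the other classes are held at the membrane and bind plexins directly. Slits are secreted ligands of Robo receptors, and netrin-1 attracts axons through Dcc and repels them through Unc5 receptors. Many of these proteins also act in blood vessels and in the movement of newborn neurons, so their RNA in whole tissue comes from several cell types.

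Depth recovered from the FPKM steps ran from 16200000 to 18740000 fragments per library. Libraries of 1 pair were closer (Pearson's r across genes on log2 values, 0.978 in pair 1 and 0.987 in pair 2) than libraries of 1 genotype (0.913 for the controls and 0.916 for Pd1CKO). Pdcd1 itself was listed at 0 in control 1, Pd1CKO 1 and Pd1CKO 2 and at 0.416 FPKM in control 2, a level that does not check the genotype labels. Summed progenitor markers (Pax6, Sox2, Hes1, Hes5, Nes, Vim) stood at 601 and 560 FPKM in control 1 and Pd1CKO 1 and at 229 and 227 FPKM in control 2 and Pd1CKO 2. Summed neuron markers stood at 1690, 1193, 2390 and 2357 FPKM in the same order, and Tubb3 (1190, 784, 1411 and 1389 FPKM) made up most of this sum; 3 of the 6 were higher in Pd1CKO 1 than in control 1, among them Neurod6 and Dcx. Markers of hem and choroid plexus summed to 202, 279, 20.4 and 340 FPKM. Most of this was Ttr of the choroid plexus (182, 246, 17 and 325 FPKM), low in control 2 alone, whereas the hem genes Wnt3a, Rspo2 and Lmx1a all passed as lower in pair 2. No marker of any list examined was at 0 in any library. The Y-linked genes Eif2s3y (0, 0, 0.0148 and 19.2 FPKM), Ddx3y, Uty and Kdm5d were high in Pd1CKO 2 only, where Xist, the RNA of the inactive X, stood at 0.00308 FPKM against 34.7 to 61.2 FPKM elsewhere. In pair 2, sex and genotype therefore cannot be told apart, for the X-linked members Efnb1 and Plxna3 as for the rest. In bulk tissue, fewer cells of a type and less RNA per cell cannot be told apart. In what follows, 4 values in a row are always in the order control 1, Pd1CKO 1, control 2, Pd1CKO 2, and a log2 difference is on the log2(FPKM + 1) scale, which understates the change of weakly expressed genes.

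All families were present in the telencephalon, at very different levels. Summed over the family, the ephrins reached 327, 311, 203 and 199 FPKM, the highest sum in the pair 1 libraries, while in those of pair 2 the plexins were higher (174, 190, 212 and 215 FPKM). Efnb1 was the most abundant single member, with a mean of 96.2 FPKM. Efnb3 followed with a mean of 63.2 FPKM, and Plxnb2, a receptor for class 4 semaphorins, with 46.6 FPKM. Among ligands of the other families, Sema4g (mean 34.4 FPKM) was the most abundant membrane semaphorin, followed by Sema4c (33.1 FPKM) and Sema6c (32 FPKM). Slit1 (15.4 FPKM), Sema3f (11.6 FPKM) and Ntn1 (10.4 FPKM) led the Slits, the class 3 semaphorins and the netrins. Among receptors, Epha4 led the EphA group (23.9 FPKM), Ephb2 the EphB group (19.3 FPKM), Robo1 the Robos (17.4 FPKM), Nrp2 the neuropilins (13.5 FPKM) and Unc5a the netrin receptors (11.4 FPKM). The 10 genes below the filter were Epha1, Epha2, Epha6, Epha10, Sema3b, Sema3d, Sema3e, Plxnb3, Ntn5 and Unc5c. No library held more than 1.52 FPKM of any of them, a value reached by Epha2 in control 1. Plxnb3 was listed at 0 in control 1, and Ntn5 in control 2 and Pd1CKO 2.

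**Figure D1:**
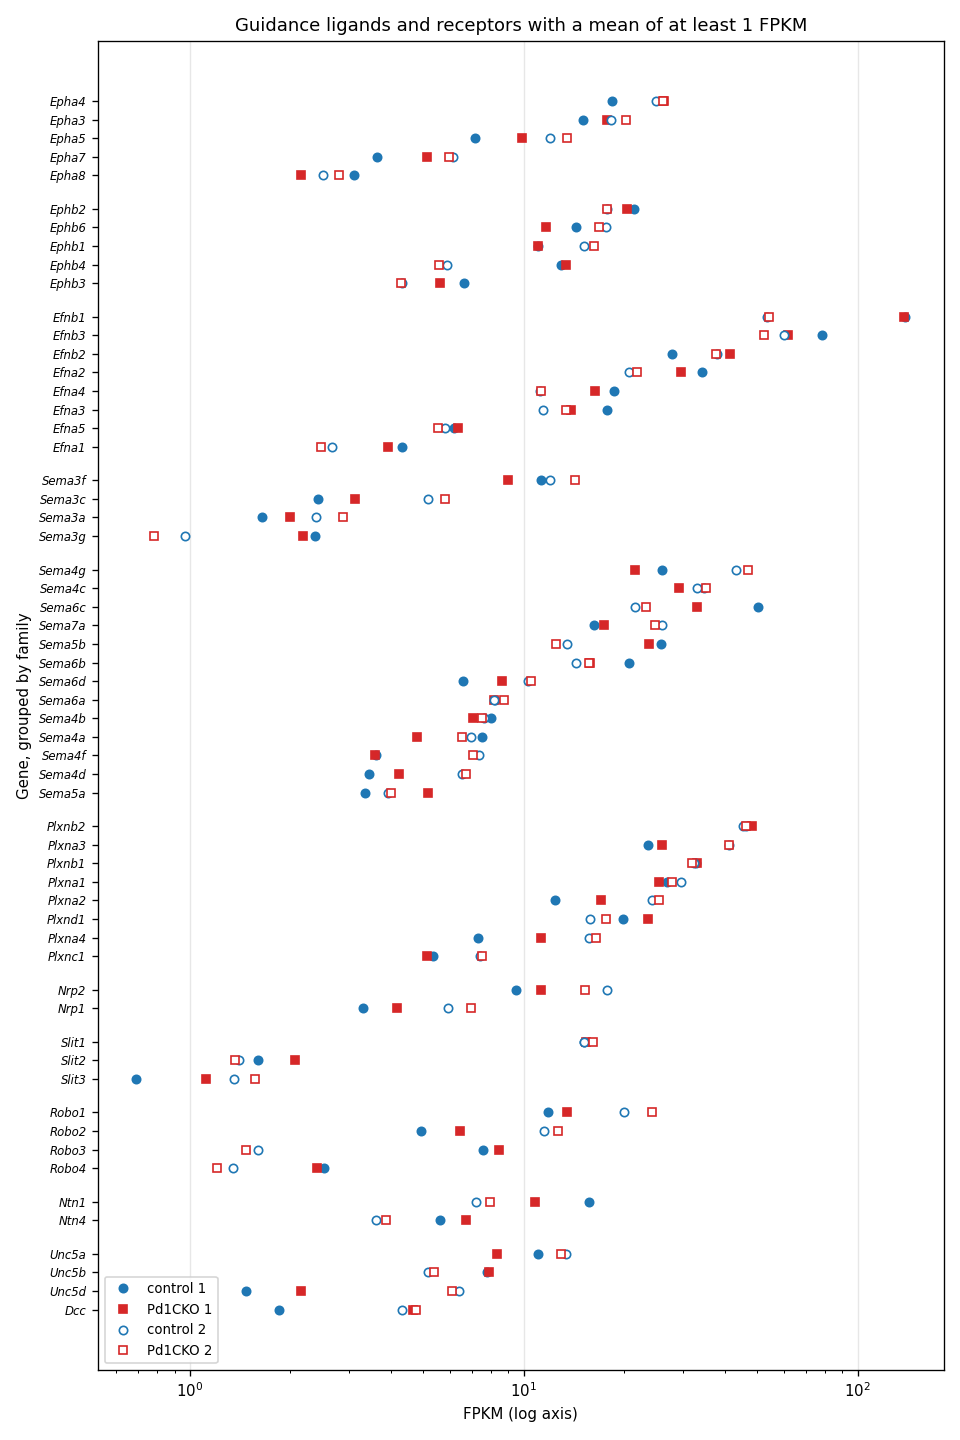
FPKM of the 58 tested ligands and receptors (log axis) in each of the 4 libraries, grouped by family, with 1 point per library. Efnb1 is the highest of them, and its pair 1 points (139 and 138 FPKM) lie apart from its pair 2 points (53.5 and 54.1 FPKM).

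No ligand or receptor differed between Pd1CKO and control beyond the spread between libraries. By limma with Benjamini-Hochberg adjustment over all tested genes, 0 of the 58 members passed at 0.05, as did 0 of 13927 genes (0.00%). At an unadjusted p under 0.05, the numbers were 0 members and 47 genes (0.337%), and limma-voom on recovered fragments also called 0. The lowest adjusted p of a member was 0.9998, and the lowest unadjusted p was 0.19, for Dcc. Pair 1 and pair 2 differ so much that the standard error of the genotype difference ran from 0.18 (Plxnb2) to 0.89 (Robo3) on the log2 scale. Changes of those sizes could not be detected in this fit, so the count of 0 does not show that the levels were equal. With library number added to the model (the replicate block), the standard error was 0.12 for Robo1 and 0.21 for Dcc, against 0.40 and 0.36. In that limma fit 1 of 58 members, and 364 higher and 257 lower of 13927 genes, had an unadjusted p under 0.05. Again 0 members passed after adjustment.

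Within the pairs, each of which compares only 1 library with 1 other, the members moved mostly in pair 1. The median size of the log2 ratio of Pd1CKO to control, without its sign, was 0.229 in pair 1 and 0.078 in pair 2, against 0.182 and 0.077 over all tested genes. In pair 1, 8 members were higher in Pd1CKO by more than 0.4 (13.8%, against 8.85% of all genes): Epha4, Epha5, Epha7, Efnb2, Sema5a, Plxna2, Plxna4 and Dcc. In the same pair 3 were lower by more than 0.4 (5.17%, against 6.04%): Sema4a, Sema6c and Ntn1. In pair 2, 0 members passed that size in either direction (all genes, 2.67% higher and 2.29% lower). Pd1CKO was the higher in both pairs for 21 members (36.2%, against 28.2% of all genes) and the lower in both for 12 (20.7%, against 23.5%). Signs differed for the others, with 11 higher in pair 1 and lower in pair 2 (19.0%, against 26.4%) and 14 the reverse (24.1%, against 21.8%). No member passed 0.4 in both pairs with 1 sign (1.24% of all genes did). Both Pd1CKO libraries lay above both controls for 5 members, Epha4, Sema5a, Plxnb2, Slit1 and Dcc (8.62%, against 8.37% of all genes), and below both for Sema4a and Sema4b (3.45%, against 6.14%). These shares are near those of all genes. The exact 95% counting interval of the fold, which compares 2 libraries and not 2 genotypes, lay above 1 for 25 members in pair 1 (43.1%, against 32.0% of all genes) and below 1 for 19 (32.8%, against 23.2%). In pair 2 it lay above 1 for 19 (32.8%, against 10.9%), Robo1, Robo2, Nrp1 and Dcc among them, and below 1 for Efnb3, Sema5b, Plxna1 and Nrp2 (6.90%, against 9.90%). The interval narrows with the number of fragments, so these counts also follow how strongly and over what length a gene is expressed.

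**Figure D2:**
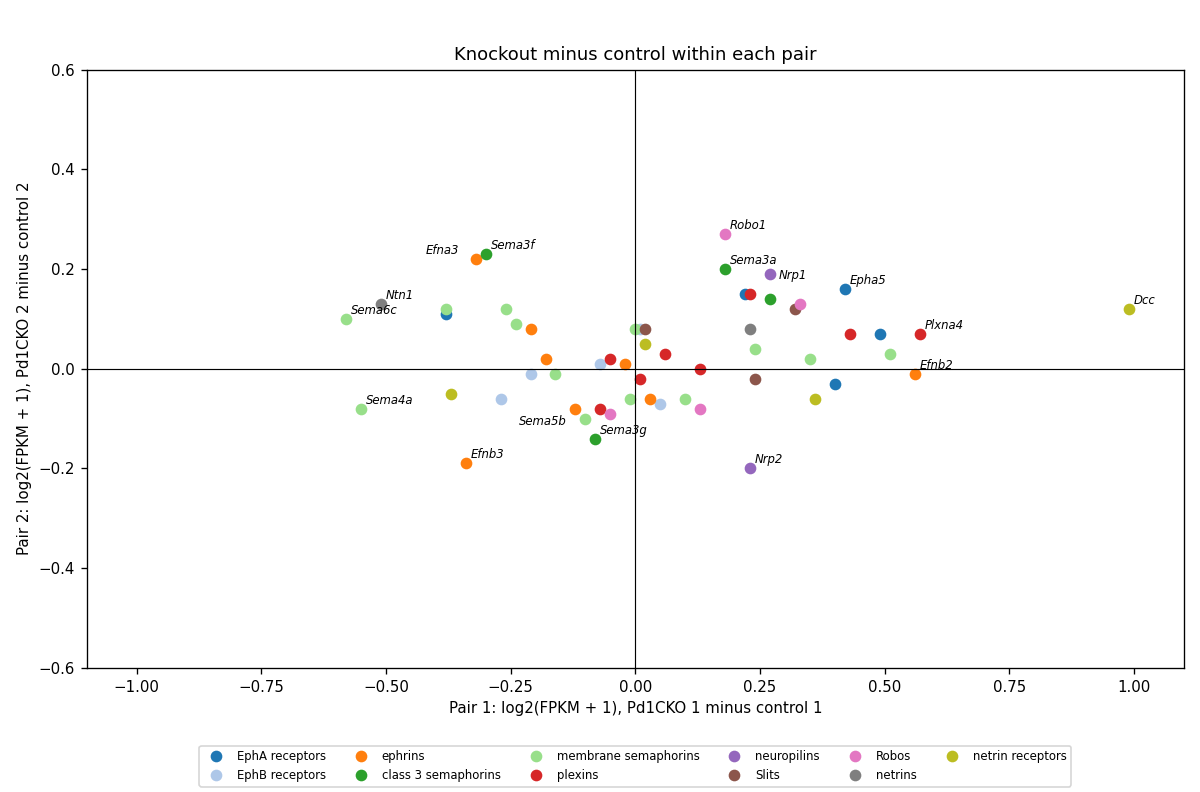
Pd1CKO minus control, as a difference of log2(FPKM + 1), in pair 1 (horizontal axis) and pair 2 (vertical axis) for the 58 tested members, coloured by family, 1 point per gene. Points spread from -0.58 (Sema6c) to 0.99 (Dcc) in pair 1 and only from -0.20 (Nrp2) to 0.27 (Robo1) in pair 2; the vertical axis covers a shorter range than the horizontal one.

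A larger difference ran between the pairs. Taking pair 2 against pair 1, 29 of the 58 members passed (limma, adjusted p under 0.05), against 35.0% of all tested genes. Of the 29, 15 were higher in pair 2 (25.9%, against 16.5% of all genes) and 14 lower (24.1%, against 18.5%). Counting libraries without a test, both pair 2 values lay above both pair 1 values for 25 members (43.1%, against 38.5% of all genes) and below them for 22 (37.9%, against 34.1%). Both members of the neuropilin family were among the higher, with 4 of 8 tested plexins, 4 of 13 membrane semaphorins (a further 2 were lower) and Robo1 and Robo2. The lower ones held 4 of 8 ephrins, both tested netrins, Robo3 and Robo4. No EphA receptor and no Slit passed, although Epha5 did so as higher under TPM scaling and quantile normalization, and Slit2 as lower (-0.64, limma adjusted p = 0.0159) with trends with gene length and GC content removed. The median difference was 0.112 for the members and 0.032 for all genes; scaling to TPM moved the all-gene median by 0.124. On that scale 20 members were higher and 13 lower (60.6% of calls higher, 51.7% before), and for all genes the balance turned from 2304 higher and 2573 lower to 3248 and 2051 (61.3% of calls higher, 47.2% before). The counts changed when single libraries were left out, and so did those of all genes. Without the filter on low values, 8 of 68 members passed as higher and 8 as lower (11.8% each). The shares of the 30637 genes then tested were 4.13% and 5.58%. Without control 1 the pair difference went from -0.72 to -0.46 for Ntn1, from 0.76 to 0.48 for Plxna4 and from -0.84 to -0.55 for Sema6c, and all 3 still passed. Efnb1, Ephb4, Plxna3, Robo2, Sema4f, Sema4g and Sema5b passed under every setting tried, and none of the 29 changed sign under any. Robo3 and Unc5d, with means of 4.76 and 4.03 FPKM, could not be in this list. They were not tested under the filter of at least 5 FPKM.

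**Figure D3:**
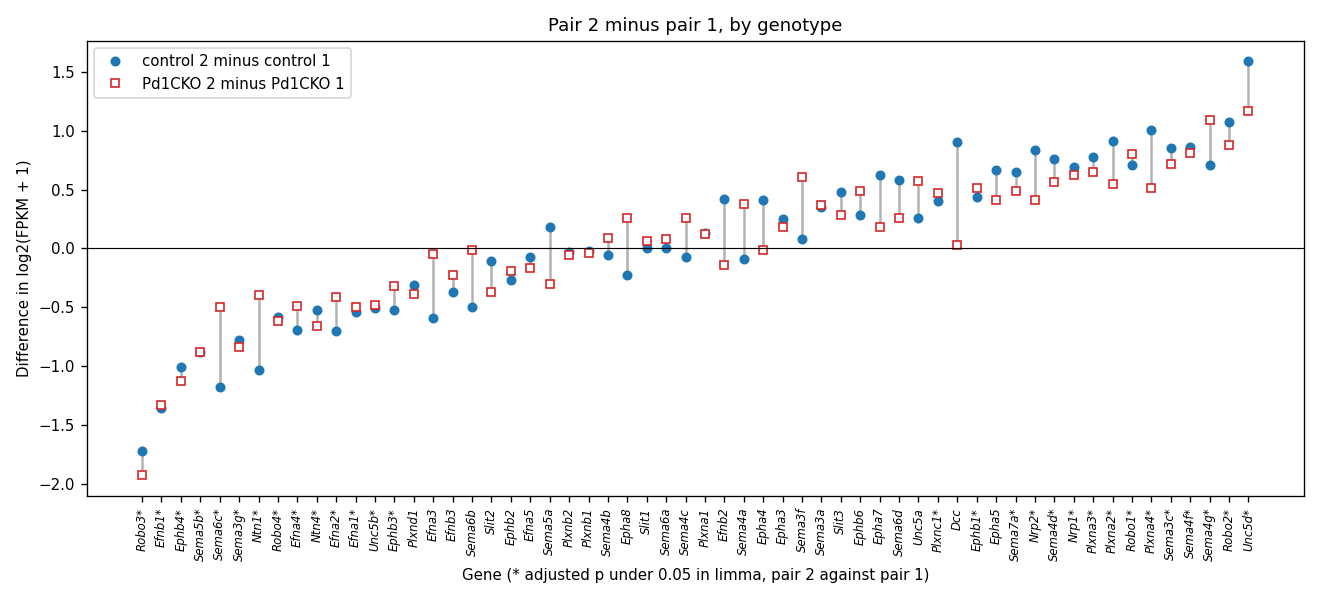
Difference of pair 2 minus pair 1 in log2(FPKM + 1) (vertical axis) for each tested member (horizontal axis, ordered by the mean difference), with filled circles for the controls, open squares for Pd1CKO and a line joining them; an asterisk marks a limma adjusted p under 0.05. The 2 genotypes share no library, and Robo3 (-1.72 and -1.93) and Unc5d (1.59 and 1.17) are the ends of the range in both.

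The ephrins were the family with the most members lower in pair 2. Efnb1, a ligand of EphB receptors that neural progenitors are known to carry, stood at 139, 138, 53.5 and 54.1 FPKM. The libraries of a pair were nearly equal and the pairs did not overlap, with 139 ± 1.16 FPKM in pair 1 and 53.8 ± 0.379 FPKM in pair 2 (mean ± SD, n = 2 each). The log2 difference was -1.35 ± 0.08 (SE; limma adjusted p = 0.000809), a 2.58-fold lower mean in pair 2. The summed progenitor markers given above were lower in the same libraries, and all 6 passed as lower in pair 2; their part in the Efnb1 difference was not tested. Efna1, Efna2 and Efna4, ligands of EphA receptors, were also lower in pair 2, with log2 differences of -0.52, -0.56 and -0.59 (limma adjusted p 0.0233, 0.014 and 0.0108). Of the exon bases of Efna4, 10.5% are shared with a gene on the opposite strand, as are 14.1% of those of Efna3, and reads of the partners cannot be told apart without strand. Efna3 stood at 17.7, 13.9, 11.4 and 13.4 FPKM, so that Pd1CKO was lower in pair 1 and higher in pair 2.

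The other ephrin-B ligands did not pass for the pair difference. Efnb2, the ligand of EphB4 that marks arteries and is also made in the brain, stood at 27.9, 41.6, 37.9 and 37.6 FPKM. Control 1 was the low library and the other three were alike. The fold of Pd1CKO to control was 1.49 in pair 1 (95% counting interval 1.43 to 1.55) and 0.993 in pair 2 (0.952 to 1.04); these intervals cover counting error between 2 libraries only. Efnb3, a midline ligand that keeps corticospinal axons from recrossing, stood at 78.3, 61.8, 60.2 and 52.5 FPKM. It was lower in Pd1CKO in both pairs (fold 0.79, 0.756 to 0.825, and 0.872, 0.829 to 0.917), and the fitted genotype difference of -0.27 ± 0.24 (SE) did not pass. Both pair 2 values also lay below both pair 1 values, with a log2 difference of -0.30 ± 0.14 (limma adjusted p = 0.152).

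Among Eph receptors, 4 of the 5 tested EphA receptors had a higher value in Pd1CKO 1 than in control 1, and none passed the test. Of all genes that span at least 200 kb, as Epha3 and Epha5 do, 73.5% were higher in pair 1. Of the shorter genes, 53.7% were. Epha4, which binds ephrins of both classes and acts in motor and corticospinal pathways, stood at 18.4, 26.3, 24.9 and 26.1 FPKM. Control 1 was again the low library, and control 2 lay close to both Pd1CKO libraries. Epha5, a receptor for ephrin-A ligands, stood at 7.13, 9.91, 12 and 13.5 FPKM, higher in Pd1CKO within each pair (fold 1.39, 1.32 to 1.47, and 1.13, 1.08 to 1.18) while control 2 lay above Pd1CKO 1. Of the 5 tested EphA receptors, 3 (Epha3, Epha4, Epha5) were higher in Pd1CKO in both pairs, as were 28.2% of all genes. Epha7 stood at 3.64, 5.15, 6.12 and 5.98 FPKM, and Epha8 at 3.11, 2.16, 2.5 and 2.79 FPKM. Epha8 was the one member of the 5 that was lower in Pd1CKO in pair 1.

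The EphB group differed by pair. Ephb4, a receptor of veins that binds ephrin-B2, stood at 12.9, 13.4, 5.89 and 5.57 FPKM. It was lower in both pair 2 libraries, with a log2 difference of -1.07 ± 0.09 (limma adjusted p = 0.00176). Summed endothelial markers (Cldn5, Pecam1, Cdh5, Kdr, Flt1, Esam) were 54.4, 61.6, 31.8 and 31.0 FPKM, with 4 of 6 passing as lower in pair 2; their part was not tested. Ephb3 was also lower in pair 2 (6.64, 5.61, 4.32 and 4.28 FPKM) and Ephb1 higher (11, 11, 15.2 and 16.2 FPKM; log2 difference 0.47 ± 0.09, limma adjusted p = 0.0138). Ephb2, the most abundant of the group, stood at 21.4, 20.4, 17.7 and 17.8 FPKM and did not pass (adjusted p = 0.0922 by limma). Ephb6, whose kinase domain lacks activity, stood at 14.3, 11.7, 17.6 and 16.8 FPKM and missed the threshold narrowly (limma adjusted p = 0.0572).

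Of the secreted semaphorins, only Sema3f had a mean above 5 FPKM. Sema3f, which repels axons through neuropilin-2, stood at 11.3, 8.95, 12 and 14.2 FPKM. Pd1CKO 1 was the lowest library and Pd1CKO 2 the highest, so the genotype fold was 0.793 (0.724 to 0.867) in pair 1 and 1.18 (1.09 to 1.29) in pair 2. Sema3a, the neuropilin-1 ligand that collapses growth cones, stood at 1.65, 1.99, 2.38 and 2.88 FPKM and had a fold of 1.21 in each pair (1.06 to 1.38 and 1.08 to 1.35). Its pairs did not overlap either, and neither the genotype nor the pair difference passed. Sema3c, a ligand known to attract cortical axons, was higher in pair 2 (2.42, 3.13, 5.16 and 5.81 FPKM; limma adjusted p = 0.012). Sema3g, known from blood vessels, was lower there (2.37, 2.19, 0.966 and 0.779 FPKM; log2 difference -0.81 ± 0.14, limma adjusted p = 0.0112).

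Receptors of the secreted semaphorins were higher in pair 2. Nrp1, which binds Sema3a and also the growth factor VEGF, stood at 3.29, 4.16, 5.94 and 6.93 FPKM. Both pair 2 libraries lay above both of pair 1, and within each pair Pd1CKO was the higher (fold 1.26, 1.13 to 1.41, and 1.17, 1.07 to 1.27). Nrp2 stood at 9.49, 11.3, 17.7 and 15.3 FPKM and was higher in Pd1CKO in pair 1 (fold 1.19, 1.12 to 1.26) and lower in pair 2 (0.862, 0.821 to 0.904). The pair differences were 0.66 ± 0.14 for Nrp1 and 0.62 ± 0.13 for Nrp2 (limma adjusted p 0.0202 and 0.0171). Of the plexins that signal for them, Plxna2, Plxna3 and Plxna4 passed as higher in pair 2, and Plxna1 did not (26.8, 25.5, 29.5 and 27.8 FPKM). Plxna1 shares 10.7% of its exon bases with a gene on the opposite strand. Plxna4 stood at 7.30, 11.3, 15.7 and 16.5 FPKM, and its genotype fold was 1.55 (1.46 to 1.64) in pair 1 and 1.05 (1.01 to 1.1) in pair 2. Neuron markers (Neurod6, Dcx, Map2, Stmn2, Gap43, Tubb3) moved the same way between pairs, with 5 of 6 passing as higher in pair 2; their part in these differences was not tested.

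Plexins of the B group, receptors of class 4 semaphorins, were nearly level. Plxnb2 stood at 46.3, 48.3, 45.4 and 46.4 FPKM and Plxnb1 at 32.8, 33.1, 32.4 and 32.0 FPKM. The log2 difference between pairs was -0.04 ± 0.08 for Plxnb2 and -0.03 ± 0.08 for Plxnb1. Plxnc1, the receptor of Sema7a, was higher in pair 2 (5.34, 5.12, 7.39 and 7.49 FPKM; limma adjusted p = 0.0217), and so was Sema7a itself, a lipid-anchored semaphorin that promotes axon growth (16.2, 17.4, 26.0 and 24.8 FPKM; limma adjusted p = 0.00811). Plxnd1, a receptor of vessels and of some neurons, stood at 19.9, 23.5, 15.8 and 17.6 FPKM and did not pass.

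Membrane semaphorins split in both directions. Sema4g stood at 26.0, 21.5, 43.2 and 46.9 FPKM, higher in both pair 2 libraries by 0.90 ± 0.12 on the log2 scale (limma adjusted p = 0.00499). Sema4f stood at 3.61, 3.59, 7.35 and 7.03 FPKM, a log2 difference of 0.83 ± 0.10 (limma adjusted p = 0.00394). Both had means in pair 2 that were 1.90 and 2.00 times those of pair 1. Sema4d, a ligand of plexin-B1, was higher as well (3.44, 4.23, 6.52 and 6.72 FPKM; limma adjusted p = 0.0135). In the other direction, Sema5b, a transmembrane repellent, stood at 25.7, 23.8, 13.5 and 12.5 FPKM. Its log2 difference between pairs was -0.88 ± 0.09 (limma adjusted p = 0.00296), and within each pair Pd1CKO was a little lower (fold 0.928 and 0.927, with the upper bounds of the intervals at 0.974 and 0.995).

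Sema6c, Sema4a and Sema5a were the semaphorins with a log2 ratio beyond 0.4 in pair 1. Sema6c stood at 50.2, 33.1, 21.6 and 23.2 FPKM. Control 1 was the high library, with a genotype fold of 0.66 (0.633 to 0.688) in pair 1 and 1.07 (1.01 to 1.14) in pair 2. Sema4a, which acts on vessels and immune cells as well as neurons, stood at 7.48, 4.79, 6.96 and 6.54 FPKM. Pd1CKO 1 was the low library, and although both Pd1CKO libraries lay below both controls, the pair 2 fold of 0.941 had a counting interval that includes 1 (0.84 to 1.05). Sema5a, a relative of Sema5b, stood at 3.34, 5.17, 3.91 and 4.01 FPKM, with Pd1CKO 1 the high library and a fold of 1.55 (1.44 to 1.67) in pair 1.

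Robo receptors were the family with the widest spread between pairs, while their Slit ligands did not pass in the fit on deposited values. Slit1, the most abundant Slit here, stood at 15.2, 15.4, 15.2 and 16.1 FPKM, and its log2 difference between pairs was 0.03 ± 0.09. Slit2 stood at 1.60, 2.07, 1.40 and 1.37 FPKM and Slit3 at 0.692, 1.12, 1.36 and 1.57 FPKM. Robo1, a Slit receptor of thalamocortical and cortical axons and of migrating interneurons, stood at 11.8, 13.5, 20 and 24.2 FPKM. Each Pd1CKO library lay above its own control (fold 1.15, 1.09 to 1.20, and 1.21, 1.17 to 1.26), and Robo1 had the largest pair 2 ratio of all tested members, 0.27 on the log2 scale. Its fitted genotype difference of 0.22 ± 0.40 (SE) did not pass, and its pair difference of 0.75 ± 0.13 did (limma adjusted p = 0.0105). Robo2, which acts together with Robo1, stood at 4.94, 6.44, 11.5 and 12.7 FPKM, with a pair difference of 0.98 ± 0.14 (limma adjusted p = 0.0063) that came to 0.49 with trends with gene length and GC content removed. It too was the higher in Pd1CKO within each pair (fold 1.30, 1.22 to 1.39, and 1.1, 1.05 to 1.16).

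Robo3 went the other way. This receptor, which lets commissural axons cross the midline, stood at 7.57, 8.41, 1.60 and 1.47 FPKM. Its mean was 7.99 ± 0.593 FPKM in pair 1 and 1.54 ± 0.0968 FPKM in pair 2 (SD, n = 2 each), 5.20-fold lower in pair 2, and its log2 difference of -1.82 ± 0.12 (limma adjusted p = 0.000885) was the largest of all members. Robo4, a receptor of endothelial cells, is its neighbour on chromosome 9 (in the deposited mm10 coordinates, Robo4 at chr9:37401897-37415115 and Robo3 at chr9:37415669-37433246). It stood at 2.52, 2.40, 1.35 and 1.21 FPKM and was 1.92-fold lower in pair 2 (limma adjusted p = 0.0207). Summed diencephalon markers (Gbx2, Barhl2, Irx1, Lhx9, Tcf7l2, Sim1, Olig3) were 51.4, 18, 14.2 and 10.9 FPKM, with control 1 the high library of the sum. Of the 5 tested markers of that list, 1 passed as lower in pair 2. This was Barhl2 (12.9, 8.03, 1.97 and 1.89 FPKM), high in both pair 1 libraries, as Robo3 was. Gbx2 (11.2, 1.54, 1.93 and 1.12 FPKM), Tcf7l2, Olig3 and Irx1 were high in control 1 alone, unlike Robo3. The part of such tissue in the Robo3 difference was not tested. The median pair difference of the 4 Robos was 0.08 and turned to -0.06 once trends with gene length and GC content were removed.

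Both tested netrins were lower in pair 2. Ntn1 stood at 15.7, 10.8, 7.18 and 7.95 FPKM, with control 1 the high library, a pair difference of -0.72 ± 0.18 (limma adjusted p = 0.0327) and a genotype fold of 0.685 (0.637 to 0.737) in pair 1 and 1.11 (1 to 1.22) in pair 2. Markers of the ventral telencephalon (Nkx2-1, Dlx1, Dlx2, Dlx5, Lhx6, Isl1, Gad1, Gad2), where netrin-1 is known to be made, summed to 345, 239, 183 and 191 FPKM, and 0 of the 8 were higher in Pd1CKO in pair 1. Between pairs the list went both ways, with 3 passing as lower in pair 2 (Nkx2-1, Dlx2 and Dlx1) and Gad1 as higher; its part in the Ntn1 values was not tested. Ntn4, a netrin of basement membranes, stood at 5.61, 6.73, 3.61 and 3.88 FPKM (limma adjusted p = 0.0187). Summed markers of meninges and mesenchyme (Col1a1, Col1a2, Lum, Dcn, Foxc1, Pdgfra) were 32.8, 56.2, 2.49 and 3.31 FPKM, and their part was likewise not tested.

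Dcc, the attractive netrin receptor, had the largest ratio within a pair. It stood at 1.85, 4.66, 4.32 and 4.77 FPKM. Control 1 was the low library and the other three lay close together. Its fold was 2.52 (2.26 to 2.82) in pair 1 and 1.1 (1.01 to 1.21) in pair 2, and the means were 3.08 ± 1.74 FPKM in control and 4.71 ± 0.0713 FPKM in Pd1CKO (SD, n = 2 each). The genotype difference of 0.55 ± 0.36 did not pass. In the authors' deposited table of pair 1 ratios, which holds 66 of the members, Dcc at 2.523 was the one member above 2 (7.96% of all its genes were), and Epha10 at 0.369, a gene under the filter, the one member below 0.5 (4.59% of its genes). Unc5d, a receptor of the Unc5 family known from migrating cortical neurons, stood at 1.47, 2.16, 6.40 and 6.09 FPKM, 3.44 times as high in pair 2 (log2 difference 1.38 ± 0.15, limma adjusted p = 0.00331). Unc5b, which also acts in vessels, was lower in pair 2 (7.76, 7.88, 5.16 and 5.38 FPKM; limma adjusted p = 0.0153). Unc5a stood at 11, 8.34, 13.4 and 12.9 FPKM, and neither of its differences passed.

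Promoters are printed for members at both ends of the pair difference, so that the 2 ends can be set side by side. Their sequences come from RefSeq (GRCm38.p6) and run from 250 bases before to 50 after the start of the gene, 5′ to 3′ on the gene's strand. Among genes whose RefSeq start lies near the start in the deposited table, Robo3 and Efnb1 stand for the low end and Sema4f and Sema4g for the high end. Unc5d (1.38) and Robo2 (0.98) had larger positive pair differences. They are not printed, since Unc5d had no promoter in the set and the starts of Robo2 lay apart. The regions are chr9:37433126-37433425 on the minus strand for Robo3, chrX:99135811-99136110 on the plus strand for Efnb1, chr6:82939720-82940019 on the minus strand for Sema4f and chr19:44989094-44989393 on the plus strand for Sema4g. Capitals mark the GC box GGGCGG, the CCAAT box CCAAT, the TATA box TATAAA and the E-boxes CAGATG and CAGCTG, each on either strand.
Robo3: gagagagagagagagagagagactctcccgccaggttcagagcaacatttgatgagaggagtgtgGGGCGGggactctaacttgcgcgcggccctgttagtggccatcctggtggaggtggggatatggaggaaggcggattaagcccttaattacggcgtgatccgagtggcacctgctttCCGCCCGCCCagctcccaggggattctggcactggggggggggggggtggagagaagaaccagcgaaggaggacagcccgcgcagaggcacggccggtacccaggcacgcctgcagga
Efnb1: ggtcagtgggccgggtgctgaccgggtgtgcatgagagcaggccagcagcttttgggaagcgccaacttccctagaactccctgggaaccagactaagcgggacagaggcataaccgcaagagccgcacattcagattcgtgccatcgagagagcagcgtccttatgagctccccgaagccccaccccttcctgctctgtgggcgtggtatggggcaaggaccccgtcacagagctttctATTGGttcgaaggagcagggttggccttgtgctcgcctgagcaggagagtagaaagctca
Sema4f: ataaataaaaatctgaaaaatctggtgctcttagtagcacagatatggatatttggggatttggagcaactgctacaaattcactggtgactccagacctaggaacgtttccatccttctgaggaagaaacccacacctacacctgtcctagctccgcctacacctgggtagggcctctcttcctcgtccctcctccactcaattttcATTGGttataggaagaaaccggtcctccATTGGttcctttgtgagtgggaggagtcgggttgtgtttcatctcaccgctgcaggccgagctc
Sema4g: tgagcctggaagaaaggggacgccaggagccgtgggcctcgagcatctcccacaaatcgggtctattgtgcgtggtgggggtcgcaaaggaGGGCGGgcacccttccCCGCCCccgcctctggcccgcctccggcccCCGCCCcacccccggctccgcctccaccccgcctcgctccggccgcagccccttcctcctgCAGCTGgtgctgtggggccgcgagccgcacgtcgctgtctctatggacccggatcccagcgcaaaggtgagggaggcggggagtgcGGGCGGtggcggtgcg
Robo3 held 3 GC boxes, of which 2 overlap, and no other motif searched. Efnb1 held 1 CCAAT box on the opposite strand and no GC box, and Sema4f held 2 CCAAT boxes on the opposite strand. Sema4g held 4 GC boxes and 1 CAGCTG, so that at either end the 2 promoters held different motifs. Of the 68 members, 58 had a promoter in the table. GGGCGG was present in 72.4% of them, against 35.7% of all 32851 promoters, CCAAT in 27.6% against 37.4%, TATAAA in 3.45% against 13.6%, CAGATG in 6.90% against 17.2% and CAGCTG in 15.5% against 16.3%. Member promoters had a median GC content of 64.7%, against 52.7%. These comparisons take 1 promoter per member but every promoter of all genes, tested or not, so the sets are unlike. Of the matched members called for the pair difference, 8 of 13 higher and 9 of 13 lower ones held a GC box. A match is a run of letters and not a shown binding site.

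Members differ greatly in length, and their ratio in pair 1 followed it. Gene span ran from 4.64 kb (Efna4) to 1092 kb (Dcc). All 14 tested members of at least 200 kb were higher in Pd1CKO in pair 1, with a median log2 ratio of 0.32, against 73.5% of all genes of that length (median 0.15). Of the 16 members under 20 kb, 2 were higher (median -0.21), against 42.2% of all such genes (median -0.06). In pair 2, 11 of the 14 long members (median 0.10) and 8 of the 16 short ones were higher, against 356 of 672 long and 3515 of 7119 short genes overall. Across the 58 members, Spearman's rho of span with the ratio was 0.68 in pair 1 and 0.31 in pair 2, against 0.26 and 0.01 across all genes. Transcript GC content gave -0.69 in pair 1 across members, and GC and span were themselves related (rho -0.62). These are descriptions across genes of the same 4 libraries, and genes are not independent replicates. With the trends of all genes with span and GC removed from each library, 6 of the 11 members kept a pair 1 ratio beyond 0.4 (Dcc, Efnb2, Ntn1, Plxna4, Sema4a and Sema6c), and 11 of the 14 long members were still higher in Pd1CKO. Spearman's rho of span with the pair 1 ratio was then 0.38 across members and 0.06 across all genes. For the pair difference, 21 of the 29 calls remained, 8 were lost (Efna2, Efna4, Ephb1, Ephb3, Plxna4, Plxnc1, Robo1 and Sema6c) and 9 were gained. This left 16 members higher and 14 lower in pair 2 (27.6% and 24.1%, against 18.2% and 16.8% of all genes). Among calls that remained, the log2 difference shrank by more than 1.5 times for Robo2, Unc5d (1.38 to 0.87), Nrp1 (0.66 to 0.38), Nrp2 (0.62 to 0.40), Plxna2 (0.73 to 0.42), Sema3c (0.78 to 0.50) and Efna1 (-0.52 to -0.34). Robo1, which was lost, went from 0.75 to 0.34.

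**Figure D4:**
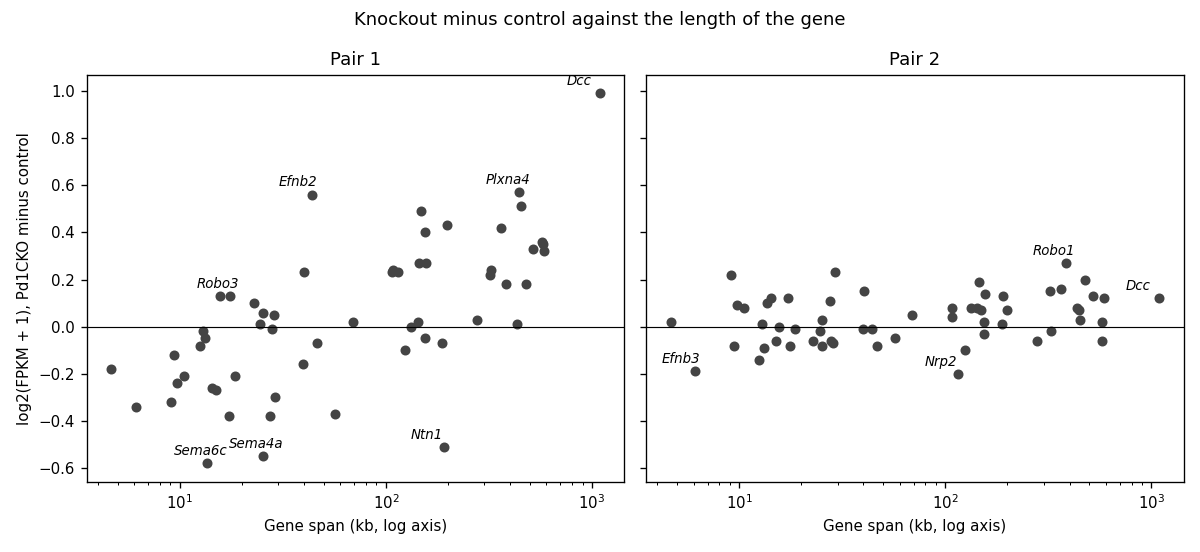
Pd1CKO minus control, as a difference of log2(FPKM + 1), against gene span in kb (log axis), in pair 1 (left) and pair 2 (right), 1 point per tested member. In pair 1 the members of at least 200 kb all lie above 0 and 14 of the 16 under 20 kb lie below it; in pair 2 the points stay between -0.20 and 0.27.

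A separate list of 58 guidance gene symbols outside these families (other cues, adhesion molecules, coreceptors and signalling proteins) was read for comparison. Of these, 57 were found (all but Cxcr7), 53 were tested, and 0 passed for genotype. For the pair difference, 26 of 53 passed as higher in pair 2 and 3 as lower (Cxcl12, Rgma and Src), against 16.5% and 18.5% of all genes, with a median of 0.348. Chl1, an adhesion molecule of growing axons, stood at 4.72, 4.04, 19.3 and 22.3 FPKM. Within pairs, 16 of the 53 were higher in Pd1CKO in both and 15 lower in both (all genes, 28.2% and 23.5%). The median ratio of the list was 0.052 (log2) for pair 1 and -0.01 for pair 2.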

How the data were processed

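Poly(A)-enriched RNA of 4 libraries was analysed. Per the submitters' processing notes, FastQC, fastp, HISAT2, TopHat, StringTie and featureCounts were used with mm10; their versions, roles and strand setting are not given in the sources used here. No unit stands in the deposited table; its values were taken for FPKM computed by the authors, since they become whole fragments once multiplied by the exon-union length of the gene in Gencode M21 (97.3% to 97.5% of values below 200 fragments, within 0.1). A second deposited table holds ratios of Pd1CKO to control in pair 1, which the authors made from the FPKM values.

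Genes averaging at least 1 FPKM were fitted with limma 3.58.1 (trend) in R 4.3.3 on log2(FPKM + 1), with either genotype or library number in the model and p-values adjusted over all of them (Benjamini-Hochberg); since the values are not counts, limma on log2 values took the place of a count test. Fold intervals are exact (Clopper-Pearson, 95%, conditional on the summed fragments) and cover counting error alone, as PCR copies are not distinguished from separate molecules. The fit was tested on simulated data. Alternatives were other pseudocounts (0.1 and 0.01), filters, TPM and quantile scaling, the replicate block, each library left out and limma-voom on recovered fragments; removal of span and GC trends (loess, span 0.5) was added after seeing the data.

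Members and lists were chosen with earlier results of these data known. The rule for named genes took the most abundant member of each family, the 3 with the largest ratio in each direction and pair, members past 0.4 with the same sign in both pairs (none, so the 4 in each direction with the largest smaller ratio), and the 4 with the largest pair difference in each direction. Other members given with values were chosen after their values were seen.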

Additional observations from a re-analysis of the deposited data

How the results depend on the processing

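The genotype comparison called 0 members under every alternative run, and 0 genes under all but the replicate block, which called 3 higher and 2 lower genes. Libraries with the same number deviated together (correlation 0.799), but with 2 pairs and no label behind the number this is a hint and not a pairing. The members' counts for the pair difference fell to 8 higher and 8 lower with no filter on low values (all genes, 1266 and 1710), and to 9 lower with a mean of at least 5 FPKM, in part because other numbers of genes were tested. With each library left out they ran from 10 to 23 higher and from 6 to 18 lower (all genes, 1018 to 3586 and 1596 to 3264); there the lone library of a pair is assumed to vary like the other pair. The members' median in pair 1, 0.02 in the report (all genes, 0.034), was 0.011 with no filter (0 over all genes), 0.007 for a minimum mean of 5 FPKM (0.001), 0.078 on the TPM scale (0.094) and 0.029 with span and GC trends removed (-0.008). For the genotype difference, Nrp2 turned to -0.01 under quantile normalization and to -0.04 with those trends removed; the cause was not tested. With each library left out, the genotype difference, none of which passed, changed sign for Efnb1 (-0.68 to 0.68), whose value over all libraries is near 0, and for Efna3 (-0.35 to 0.24), Epha5 (-0.04 to 0.63), Ephb2 (-0.16 to 0.11), Nrp1 (-0.12 to 0.58), Nrp2 (-0.41 to 0.43), Ntn1 (-0.70 to 0.33), Plxna4 (-0.19 to 0.82), Robo1 (-0.17 to 0.62), Sema3f (-0.35 to 0.27), Sema3g (-0.53 to 0.31), Sema4g (-0.62 to 0.47), Sema5b (-0.54 to 0.34), Sema6c (-0.83 to 0.35) and Unc5a (-0.50 to 0.08). With a library left out, the genotypes no longer hold the same pairs, so part of the pair difference enters the genotype difference. The sign can then change even for members with the same sign in both pairs, such as Robo1 and Sema5b. These changes therefore do not show that the direction within the pairs was unstable. Same-sign counts and pair medians have no value with a library left out, since a pair then loses its comparison.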
